A study of Mus musculus with 3 samples.

Results

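The Chia1 Krt7 epithelial cells were cell barcodes of bleomycin-injured mouse lung that carried both Chia1, which encodes acidic mammalian chitinase, and Krt7, a keratin of simple epithelia. A barcode was a member when Chia1 and Krt7 each made up at least 0.05% of its UMIs (unique molecular identifiers, which count mRNA molecules), when it held at least 1 UMI of the epithelial adhesion gene Epcam, and when Scgb1a1 made up under 25% of its UMIs. Barcodes also needed at least 5000 UMIs, at least 500 detected genes and at most 15% mitochondrial UMIs. The rule kept 173 cells of 16627 deposited barcodes: 116 from the tdTomato+ Club-Tracer library, 37 from the BASC-Tracer and 20 from the AT2-Tracer library. These cells were chosen by their measured Chia1, Krt7, Epcam and Scgb1a1 values in these same libraries, so what follows describes them and carries no test.

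The 3 libraries were droplet-based single-cell RNA libraries of sorted cells from whole lung of mice with the genotype Scgb1a1-CreER;Sftpc-DreER;R26-TLR, taken 4 weeks after bleomycin, a drug that injures the alveolar epithelium. The alleles name CreER under the club cell gene Scgb1a1, DreER under the surfactant gene Sftpc, and the TLR reporter at the R26 locus. The Club-Tracer library held tdTomato+ cells, the BASC-Tracer library ZsGreen+ tdTomato+ cells and the AT2-Tracer library ZsGreen+ cells. All 3 shared the alleles and the injury, there was 1 library for each lineage label, and the sources used here do not give the number of animals behind a library. Differences between libraries therefore cannot be told apart from differences between sorts or animals.

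Club cells are secretory cells of the airway that make secretoglobins and oxidise foreign compounds with cytochrome P450 enzymes. Alveolar type 2 (AT2) cells make lung surfactant and can give rise to the flat alveolar type 1 (AT1) cells across which gas is exchanged. After lung injury in mice, epithelial cells with high simple keratins have been described between these identities. Chia1 digests chitin, Ly6a encodes the surface antigen Sca-1 used to sort mouse progenitor cells, Ces1g is a carboxylesterase, and Krtap17-1 belongs to a family of keratin-associated proteins known from hair.

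All 5 of these genes are protein-coding in the GENCODE M21 annotation of GRCm38. Chia1 (ENSMUSG00000062778) lies at chr3:106113229-106132120 on the plus strand. Krt7 (ENSMUSG00000023039) lies at chr15:101411043-101430313 on the plus strand, and Ly6a (ENSMUSG00000075602) lies at chr15:74994877-74998031 on the minus strand. Krtap17-1 (ENSMUSG00000078252) lies at chr11:99993234-99993994 on the minus strand, and Ces1g (ENSMUSG00000057074) lies at chr8:93302369-93337308 on the minus strand. Of the 5 genes, 4 matched a RefSeq promoter (GRCm38.p6). In the 250-base windows of Chia1 and Ces1g, GENCODE untranslated sequence of the same gene began after 97 and 151 bases, and these windows are not printed. The windows of Krt7, which is part of the rule, and Krtap17-1, which is not, are printed in the direction of transcription. They are chr11:99993995-99994244, minus strand, for Krtap17-1, and chr15:101412153-101412401, plus strand, for Krt7, whose RefSeq start lies inside the GENCODE gene. Capitals mark the letters TATAAA.
Krtap17-1: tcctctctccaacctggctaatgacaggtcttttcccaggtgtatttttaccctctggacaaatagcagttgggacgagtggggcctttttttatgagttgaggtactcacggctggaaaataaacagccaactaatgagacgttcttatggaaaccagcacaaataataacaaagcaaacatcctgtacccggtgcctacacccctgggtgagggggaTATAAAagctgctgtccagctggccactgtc
Krt7: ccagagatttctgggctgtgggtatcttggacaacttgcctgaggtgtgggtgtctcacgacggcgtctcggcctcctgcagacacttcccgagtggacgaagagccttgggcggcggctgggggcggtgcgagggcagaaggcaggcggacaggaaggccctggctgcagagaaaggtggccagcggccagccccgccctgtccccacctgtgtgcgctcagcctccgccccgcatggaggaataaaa
TATAAA was searched on both strands of the 250 bases before the start and occurred in 12.4% of 32851 RefSeq promoters. It began 43 bases before the start of Chia1, 31 before Krtap17-1 and 26 before Ces1g, and was not in the window of Krt7. In Chia1 and Ces1g the match lay downstream of the point where GENCODE untranslated sequence began. The letters TGANTCA, present in 6.75% of promoters, and CAAGTG, present in 11.6%, were in none of the 4 windows.

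The members were 4.84% of the 2398 Epcam barcodes past the filters in the Club-Tracer library (exact Clopper-Pearson 95% interval 4.01 to 5.77%). They were 4.26% of 868 in the BASC-Tracer library (3.02 to 5.83%) and 0.714% of 2802 in the AT2-Tracer library (0.437 to 1.10%). The first 2 intervals overlapped and the AT2-Tracer interval lay below both. Intervals here and below cover counting error only and not differences between animals. Chia1 and Krt7 passed together in 5.46%, 4.38% and 0.714% of the Epcam barcodes of the Club-, BASC- and AT2-Tracer libraries. The limit on Scgb1a1 then removed 15, 1 and 0 barcodes. Independent passing would give the product of the Chia1 share and the Krt7 share, which was 5.61%, 6.67% and 1.85%. That product lay inside the 95% interval of the observed joint share in the Club-Tracer library (4.59 to 6.45%). It lay above the interval in the BASC-Tracer (3.12 to 5.96%) and AT2-Tracer (0.437 to 1.10%) libraries. The 2 genes therefore did not pass together more often than independent passing would give.

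Some cells lay close to the edge of the rule. Between 0.05% and 0.06% of UMIs lay 10, 3 and 5 members for Chia1 and 17, 6 and 3 for Krt7 in the Club-, BASC- and AT2-Tracer libraries. Between 0.04% and 0.05%, just outside, lay 9, 2 and 4 barcodes for Chia1 and 18, 3 and 7 for Krt7. The members had a median of 29465, 41164 and 21184.5 UMIs per cell in the 3 libraries. Scrublet, a doublet caller, marked 3, 1 and 0 of them. Barcode sequences that also occurred in another library made up 5, 7 and 0 members, and results that change without them are given below. Over all deposited barcodes, the pairs of libraries shared 73, 122 and 94. In the comparison classes defined next, such barcodes made up 13 of 714, 37 of 111 and 0 of 7 club cells. Among AT2 cells they made up 2 of 287, 12 of 250 and 12 of 1254. The BASC-Tracer club cells thus held the largest part of them.

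The comparison cells came from the same libraries and filters and excluded the members. Club cells had Scgb1a1 at 10% of UMIs or more, Cyp2f2 at 0.2% or more, Sftpc under 2% and no UMI of Foxj1 or Krt5. These limits gave 714, 111 and 7 cells in the Club-, BASC- and AT2-Tracer libraries. AT2 cells had Sftpc at 3% or more, at least 2 UMIs of Lamp3 and no UMI of Foxj1, which gave 287, 250 and 1254 cells. Foxj1 is a gene of ciliated cells and Krt5 of basal cells, and the members had no limit on either. Barcodes without Epcam and with at least 2 UMIs of Ptprc or Pecam1, genes of immune and endothelial cells, show what free RNA adds to cells that should lack the label genes (20, 78 and 1181 cells). The 7 club cells of the AT2-Tracer library were too few to set single genes against: 1206 of 3025 genes (39.9%) were at least 2-fold higher in its members and 165 (5.45%) lower, by the measure explained below.

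The genes of the rule were high in the members by construction. Levels are CPM, counts per 1000000 UMIs, with UMIs summed over the cells of a class. Chia1 was at 3659, 2235 and 1091 CPM in the members of the Club-, BASC- and AT2-Tracer libraries, against 544 and 462 CPM in club cells of the first 2 and 1089, 557 and 146 CPM in AT2 cells of all 3. Krt7 was at 1532, 1574 and 942 CPM in the members, against 242 and 204 CPM in club cells and 223, 273 and 406 CPM in AT2 cells. Chia1 varied widely from cell to cell: in Club-Tracer members it had a median of 0.209% and a highest value of 2.87% of UMIs. In BASC-Tracer members these were 0.124% and 1.14%, and in AT2-Tracer members 0.0748% and 0.321%.

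Ly6a and Krtap17-1, which the rule did not use, were also higher in Club- and BASC-Tracer members than in either comparison class. Ly6a was at 2111, 957 and 391 CPM in the members of the 3 libraries, against 384 and 262 CPM in club cells and 644, 301 and 160.2 CPM in AT2 cells. High Ly6a was not particular to the members. Among the clusters of Epcam cells described below, it was at 2426 CPM in a cluster with Foxj1 among its leading genes. It was at 1456 CPM in a cluster led by Krt14 and Krt5, and lower in the others. These 2 clusters held 1 and 2 members. Krtap17-1 was at 767 CPM in Club-Tracer members, against 174 CPM in club and 109 CPM in AT2 cells. Its ratio there was 4.40 (4.18 to 4.63) to club cells and 7.02 (6.49 to 7.59) to AT2 cells, with exact conditional 95% intervals on linear CPM. In BASC-Tracer members Krtap17-1 was at 651 CPM, against 157 and 82.3 CPM in club and AT2 cells. The Ly6 and Ces1 families hold near-identical copies, so the split of reads among their members is uncertain.

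Ces1g set the members apart from AT2 cells more than from club cells. It was at 94.6 and 143 CPM in Club- and BASC-Tracer members, against 45.6 and 35.9 CPM in club cells and 3.10 and 3.12 CPM in AT2 cells. A single Club-Tracer member gave 27.4% of the Ces1g UMIs of its class and a single BASC-Tracer member 38.3%, and without them Ces1g was at 69.6 and 91.6 CPM. Against club cells of the Club-Tracer library the ratio was 2.08 (1.83 to 2.36) with all members included. By the measure explained below it was 0.98 on the log2 scale and not past 2-fold.

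Not every member carried the label genes that lay outside the rule. A UMI of Ly6a was found in 110 of 116 Club-Tracer members, 30 of 37 BASC-Tracer members and 14 of 20 AT2-Tracer members. Krtap17-1 was found in 78, 21 and 3 of them, and Ces1g in 31, 9 and 0. With every cell thinned to 5000 UMIs, Krtap17-1 was detected in 55.2% (95% interval 45.7 to 64.4%) of Club-Tracer members, in 19.0% of club cells and in 14.3% of AT2 cells. In the BASC-Tracer library the shares were 48.6% (95% interval 31.9 to 65.6%), 29.7% and 10.8%. Among the Epcam-negative cells deep enough to thin, Krtap17-1 was detected in none of 6 in the Club-Tracer library (median 8447.5 UMIs), which allows up to 45.9%, and in none of 65 in the BASC-Tracer library (median 12976 UMIs), which allows up to 5.52%. It was detected in 0.0987% of 1013 such cells of the AT2-Tracer library, with a median of 10318 UMIs, against 29465 in Club-Tracer members. Ly6a was less exclusive, at 89.7%, 66.1% and 77.7% of thinned Club-Tracer members, club cells and AT2 cells, and it is known in endothelial cells.

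The AT2-Tracer members went against the label. Krtap17-1 was at 16.2 CPM in these 20 cells and at 42.5 CPM in AT2 cells of that library, and Ces1g had no UMI in them. Sftpc was at 80430.3 CPM in them and 96497 CPM in AT2 cells, and 14 of the 20 met the criteria for AT2 cells apart from the exclusion of members. They are described here by the rule that chose them and get no cell type name.

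**Figure D1:**
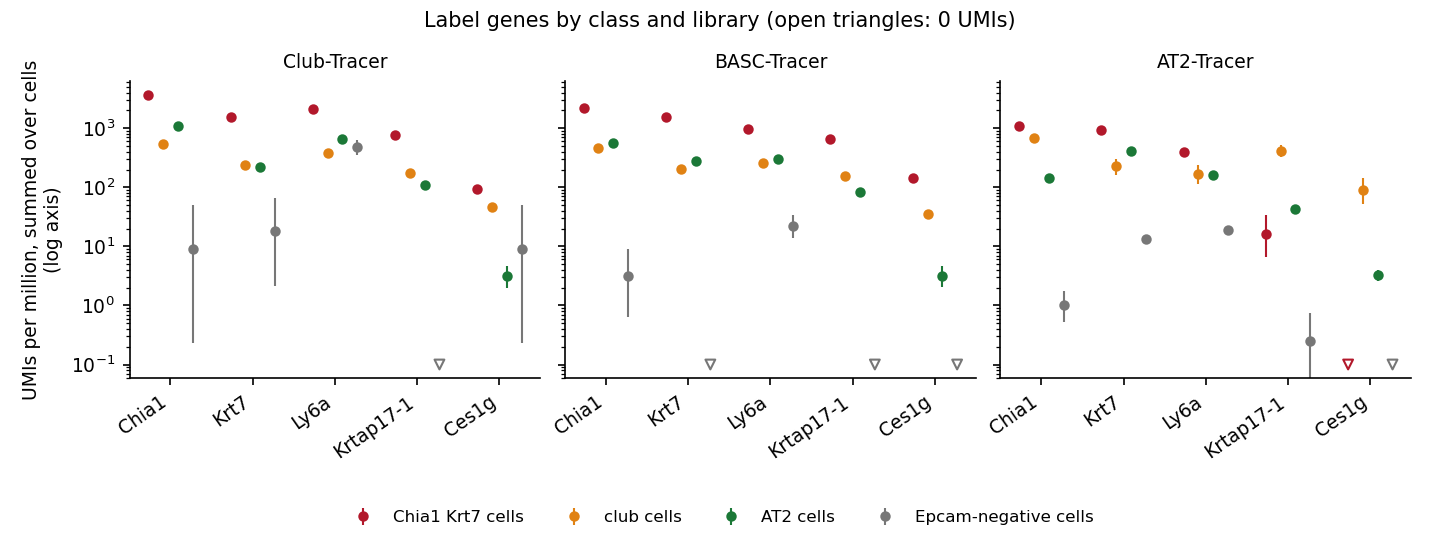
Level of the 5 label genes in each library, as summed CPM on a log axis with exact Poisson 95% intervals (counting error only), for the Chia1 Krt7 cells, club cells, AT2 cells and Epcam-negative cells with Ptprc or Pecam1. Open triangles mark 0 UMIs. In the Club- and BASC-Tracer libraries the Chia1 Krt7 cells stand highest for all 5 genes, and in the AT2-Tracer library they have no Ces1g UMI.

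Within each library the members ranged from cells rich in the surfactant gene Sftpc to cells rich in Scgb1a1. Sftpc made up at least 3% of UMIs in 23 Club-Tracer members, 10 BASC-Tracer members and 15 AT2-Tracer members. Scgb1a1 made up at least 10% in 25, 8 and 0 further members, and the remaining 68, 19 and 5 were below both limits. No member was above both. Sftpc ran from 0% through a median of 0.0343% to 13.9% of UMIs over the Club-Tracer members, and Scgb1a1 from 0.0506% through 2.34% to 24.0%. In BASC-Tracer members Sftpc ran from 0% through 0.193% to 11.4%, and Scgb1a1 from 0.0134% through 1.31% to 21.6%. Apart from the exclusion of members, 20, 9 and 14 of the members met the criteria for AT2 cells and 16, 3 and 0 those for club cells.

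The cells around each member differed accordingly. Among the 15 nearest neighbours in expression, found without Chia1, Krt7, Epcam, Scgb1a1 and the reporters, a mean of 28.3% were members in the Club-Tracer library, where members made up 4.84% of cells. The mean was 16.4% against 4.26% in the BASC-Tracer library and 2.0% against 0.714% in the AT2-Tracer library. Neighbours of the members with much Sftpc were AT2 cells in 55.7%, 64.0% and 91.1% of cases in the 3 libraries. Neighbours of the members with much Scgb1a1 were club cells in 45.1% and 47.5% of cases in the Club- and BASC-Tracer libraries.

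**Figure D2:**
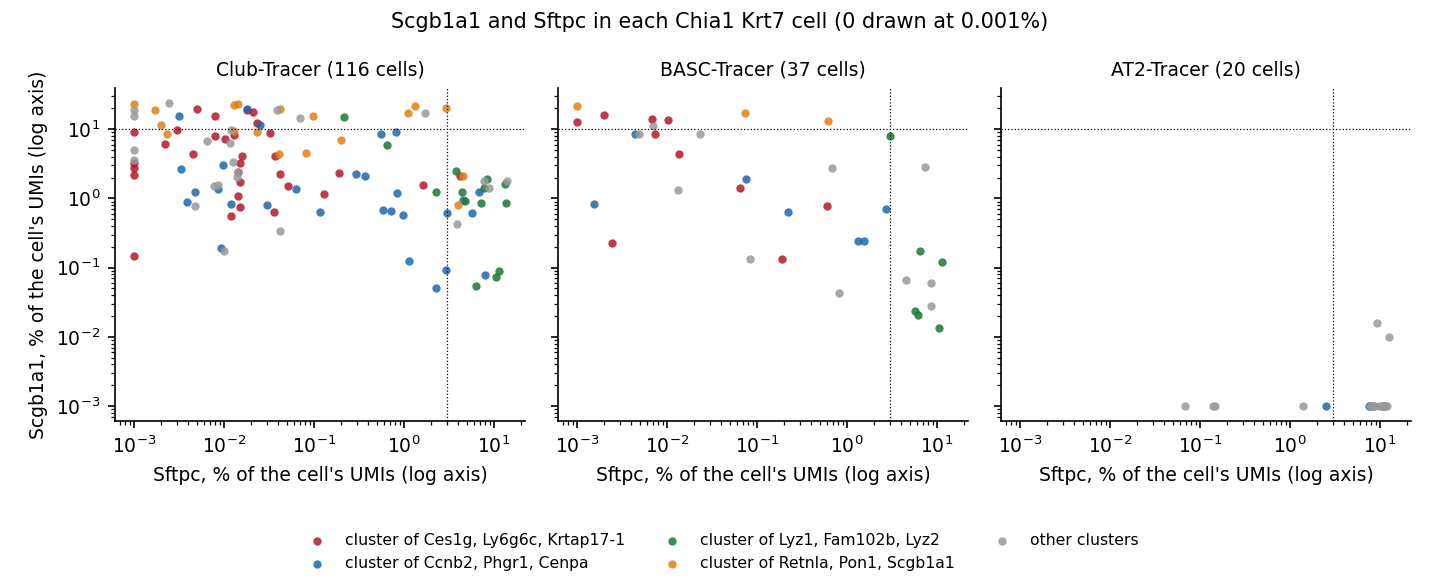
Each point is 1 Chia1 Krt7 cell, with Sftpc and Scgb1a1 as percentages of the cell's UMIs on log axes, 0 drawn at 0.001%, and dotted lines at 3% Sftpc and 10% Scgb1a1; colours give the cluster. Of the 116 Club-Tracer cells 68 lie below both lines, as do 19 of the 37 BASC-Tracer cells, and 15 of the 20 AT2-Tracer cells lie past the Sftpc line.

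Clustering of 6068 Epcam cells of the 3 libraries, again without those genes, placed the members in 14 of 20 clusters. A cluster led by Ces1g, Ly6g6c and Krtap17-1 held 42 members among 218 cells, from the Club-Tracer library (32) and the BASC-Tracer library (10). A cluster led by Ccnb2, Phgr1 and Cenpa, of which Ccnb2 and Cenpa serve cell division, held 40 among 311. Of those 311 cells, 162 were AT2 cells, and 164 came from the AT2-Tracer library. A further 22 lay in a cluster of 593 cells led by Lyz1, which held 430 of the AT2 cells, and 21 in a cluster of 606 led by Retnla and Pon1, which held 468 of the club cells. The members reached at most 19.3% of a cluster, in the first. A cluster of 346 cells led by Akap5 and Rtkn2 with the AT1 gene Hopx among its leading genes held 1 member, and a cluster of 273 cells led by the basal keratins Krt14 and Krt5 held 2. The label genes therefore did not mark 1 common group of cells, and the clusters get no cell type names here.

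The 42 members in the Ces1g cluster carried airway genes together with part of the AT1 list. Ager, a receptor that marks AT1 cells, was at 3448 CPM in them and 966 CPM in the 40 members of the Ccnb2 cluster, and Hopx, a homeodomain gene of AT1 cells, at 1680.1 and 313 CPM. Of the other AT1 markers listed, apart from Cldn18, Aqp5 was at 2153 CPM, Emp2 at 1065 CPM, Gprc5a at 802 CPM and Akap5 at 118 CPM in the 42 cells. Cav1, Col4a3, Pdpn and Rtkn2 were at 18.3, 17.4, 3.66 and 2.74 CPM, and Igfbp2 and Spock2 had no UMI. Cyp2f2, a P450 enzyme of club cells, was at 7600.2 and 593 CPM, and the carbonyl reductase gene Cbr2 at 10129 and 977 CPM. Ager had a UMI in 42, Hopx in 42 and Cyp2f2 in 42 of the 42 cells. Krtap17-1 was at 1698 CPM with a UMI in 33 of the 42, and Ces1g at 401 CPM with a UMI in 23. Over all 218 cells of the cluster, members included, Krtap17-1 was at 1021 CPM and Ces1g at 297 CPM, so other cells of the cluster carried them too. In the 42 members Sftpc was at 1451 CPM, with 139.6 CPM in the median cell. The clustering used these genes, so their levels describe the cells in it.

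Both libraries with such cells showed the combination. In the 32 Club-Tracer members of the Ces1g cluster Ager was at 3129 CPM, Hopx at 1568 CPM, Cyp2f2 at 7972 CPM and Krtap17-1 at 1523 CPM. In the 10 BASC-Tracer members Ager was at 4116 CPM, Hopx at 1915 CPM, Cyp2f2 at 6823 CPM and Krtap17-1 at 2065 CPM.

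The 40 members in the Ccnb2 cluster had more Krt7 and Ly6a and hardly any Ces1g. Krt7 was at 2169 CPM in them and 1462 CPM in the members of the Ces1g cluster, and Ly6a at 2555 and 1408 CPM. Ces1g was at 4.35 CPM with a UMI in 3 of the 40, and Krtap17-1 at 554 CPM with a UMI in 23. Mki67, a protein of dividing cells, was at 68.1 CPM with a UMI in 21 of the 40, and at 2.74 CPM in the Ces1g cluster. Birc5, which acts in mitosis, was at 76.1 CPM, with no UMI in the members of the Ces1g cluster. Sftpc was at 18352 CPM and the AT2 lysosomal gene Lamp3 at 249 CPM. The Sftpc sum covers unlike cells, since Sftpc ran from 0.00156% to 8.72% of UMIs over these members. The median depth was 33611 UMIs in these cells and 21501 UMIs in the members of the Ces1g cluster, and the part of depth in the difference was not tested.

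The members of the other 2 clusters carried the leading genes of the cells around them. The 22 in the Lyz1 cluster had Sftpc at 70927 CPM, the lysozyme gene Lyz2 at 13083 CPM and Krtap17-1 at 90.4 CPM. The 21 in the Retnla cluster had Scgb1a1 at 144993 CPM, Cyp2f2 at 3904 CPM and Krtap17-1 at 585 CPM. Krt8, another simple keratin, was at 1383, 1548, 1049 and 1715 CPM in the members of the Ces1g, Ccnb2, Lyz1 and Retnla clusters.

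**Figure D3:**
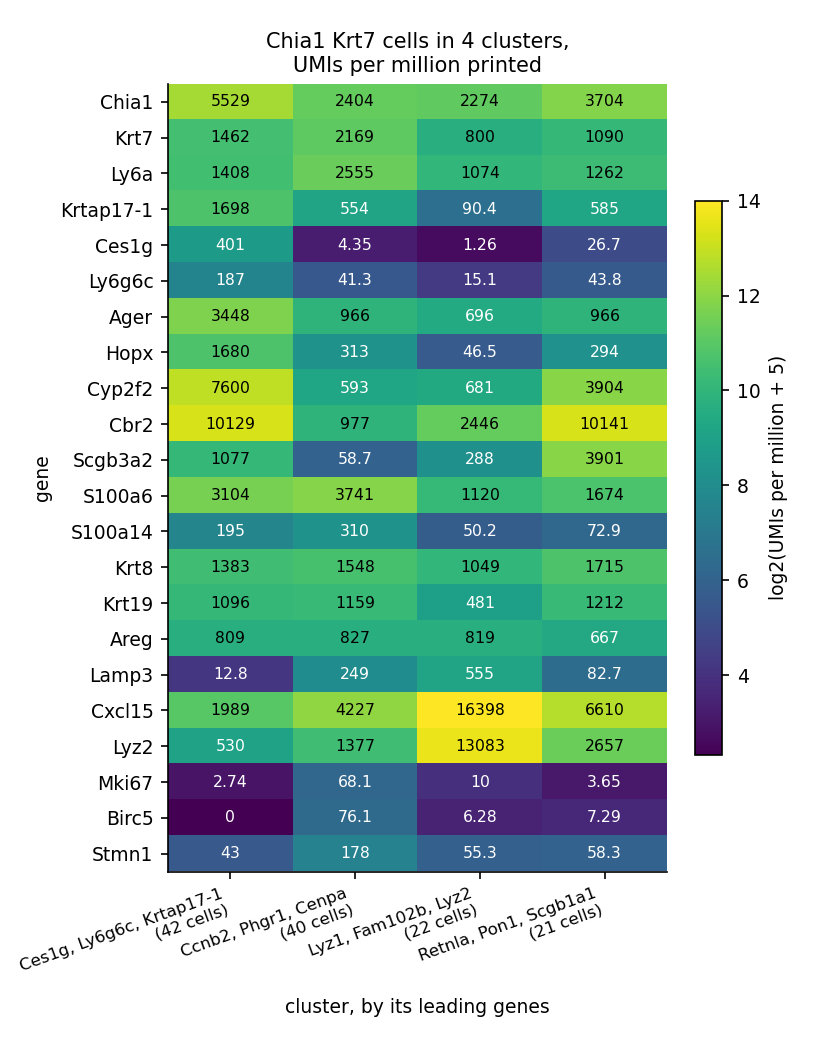
Heatmap of 22 genes (rows) in the Chia1 Krt7 cells of 4 clusters (columns, named by leading genes, all libraries together), in summed CPM. The Ces1g cluster is highest for Krtap17-1, Ager, Hopx and Cyp2f2, and the Ccnb2 cluster for Krt7, Ly6a and Mki67.

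Against club cells, the members had lower levels of most club genes and, in CPM, higher levels of surfactant, keratin and growth factor genes. Of the simple keratins, only Krt7, which the rule used, was past 2-fold relative to the median gene, a measure given below. Genes with at least 50 CPM in either class counted as higher or lower when they differed at least 2-fold on the log2(CPM + 5) scale, a measure of size that is no test and understates differences of low genes. In the Club-Tracer library 730 of 2725 genes were higher (26.8%) and 48 lower (1.76%), and in the BASC-Tracer library 658 of 2853 were higher (23.1%) and 65 lower (2.28%). Scgb1a1 took 378156 and 353867 of each 1000000 UMIs of the club cells, and the median gene lay 0.77 and 0.68 higher in the members on the log2 scale. Relative to that median gene, 85 genes were higher and 120 lower in the Club-Tracer library, and 132 and 168 in the BASC-Tracer library. The libraries shared 474 higher genes (64.9% of the Club-Tracer and 72.0% of the BASC-Tracer ones) and 36 lower ones (75% and 55.4%).

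List counts here and below cover the listed genes that reached 50 CPM in either class, so a gene may enter through the class where it is high. Of 12 club markers measured among 13 listed, 9 were lower in Club-Tracer members and 10 in BASC-Tracer members, and none was higher. The lower ones include Scgb1a1, which the rule limited in the members and which chose the club cells, and Cyp2f2, which also chose the club cells. Pon1, a paraoxonase, was at 7.48 and 4.42 CPM in the members of these libraries, against 427 and 377 CPM in club cells. The secretoglobin gene Scgb3a2 was at 2017 and 785 CPM in the members, against 13934 and 10658 CPM in club cells, and 1 BASC-Tracer member gave 61.4% of its UMIs. These genes were low in both libraries. Cyp2f2, which chose the club cells, was at 3178 and 2625 CPM in the members, against 7463 and 8813 CPM.

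Of the 15 and 16 genes of xenobiotic oxidation measured in the Club- and BASC-Tracer libraries, 8 and 9 were lower in the members and none was higher. Cyp2f2, which chose the club cells, is among the lower ones. The P450 gene Cyp4b1 was at 147 and 109 CPM in the members, against 460.2 and 540.3 CPM in club cells. Por, the reductase that passes electrons to P450 enzymes, was at 316 and 274 CPM in the members, against 643 and 681 CPM in club cells. Sult1d1, a sulfotransferase gene, was at 1.73 and 0.632 CPM in the members, against 62.1 and 41.9 CPM in club cells.

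Secretory genes of the upper airway were lower in the members than in club cells in summed CPM. Of those measured, 6 of 7 were lower than in club cells in the Club-Tracer library and 2 of 2 in the BASC-Tracer library. The sums of the club cells rested on few cells. Over this list the Club-Tracer club cells summed to 9566 CPM, with 175 CPM in the median cell and 251267 CPM in the highest. The median Club-Tracer member was at 59.2 CPM. In the BASC-Tracer library the median club cell was at 80.3 CPM and the highest at 59855 CPM. Scgb3a1, a secretoglobin of larger airways, was at 812 and 1.26 CPM in the members, against 7864 and 687 CPM in club cells, and 1 Club-Tracer member gave 60.9% of its UMIs. Bpifb1, a secreted airway protein, was at 2.88 and 0 CPM in the members, against 157 and 11.8 CPM in club cells. Saa3, an acute phase gene, was at 13.2 and 1.26 CPM in the members, against 86 and 51.7 CPM. Scgb1c1, Chad and Gdpd2 were also among the 10 lowest, at 43.1 and 31.0 CPM for Scgb1c1 in the members, against 339 and 335 CPM in club cells.

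The genes furthest above club cells were in part surfactant-cell genes of some members. Sftpc was at 16739 and 21237 CPM in Club- and BASC-Tracer members, against 376 and 380.2 CPM in club cells, which had been chosen for little of it. Lyz1, a lysozyme gene near-identical to Lyz2, was at 2236 and 1164 CPM in the members, against 38.8 and 3.24 CPM, and 1 BASC-Tracer member gave 84.1% of its UMIs. In the 68 Club-Tracer members below both limits, Lyz1 was at 33.4 CPM, under the club cells. Cldn18, a tight-junction claudin of alveolar cells, was carried more widely, with a UMI in 88 of 116 and 32 of 37 members. It was at 379 and 683 CPM in the members, against 11.9 and 12.0 CPM in club cells.

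Of the calcium-binding S100 genes, 3 were among the 10 furthest above club cells. S100a6 was at 2935 and 2892 CPM in Club- and BASC-Tracer members, against 202 and 64.0 CPM in club cells and 392 and 408 CPM in AT2 cells, with a UMI in 104 of 116 and 34 of 37 members. S100a14 was at 169.7 and 148 CPM in the members, against 12.7 and 10.7 CPM in club cells, and S100a10 at 182 and 278 CPM, against 15.8 and 10.7 CPM. A UMI of S100a14 was found in 83 of 116 and 25 of 37 members, and a UMI of S100a10 in 86 and 31. Of the other genes among the 10 furthest above club cells, the secreted factor gene Ndnf was at 169 and 245 CPM in the members, against 2.98 and 3.94 CPM. The tetraspanin gene Tspan8 was at 89.1 and 127 CPM, against 3.96 and 4.17 CPM, and Fam102b at 154 and 144 CPM, against 10.9 and 13.9 CPM. The chemokine gene Ccl20 was at 154 and 25.3 CPM, against 11.4 and 1.85 CPM, from 15 Club-Tracer members and 1 BASC-Tracer member, without which none was left there.

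Markers of the transitional state after injury were higher than in club cells in 9 of 12 cases in the Club-Tracer library and 11 of 12 in the BASC-Tracer library, or 4 and 5 relative to the median gene, and none was lower. Krt8 was at 1454 and 1605 CPM in the members, against 633 and 553 CPM in club cells. Of the EGF family ligands and receptors, 3 of 4 and 3 of 5 were higher, where 26.8% and 23.1% of all genes measured were. This count is not given relative to the median gene. Areg, an EGF receptor ligand, was at 821 and 772 CPM in the members, against 88.4 and 52.6 CPM in club cells, and the ligand gene Ereg at 97.2 and 59.4 CPM, against 7.92 and 1.85 CPM. Of the 13 AT1 markers listed, 6 and 7 reached 50 CPM and 5 and 5 of those were higher, or 2 and 4 relative to the median gene. Spock2 had no UMI in the members of either library, and Igfbp2 none in BASC-Tracer members. Ager was at 1409 and 1651 CPM in the members, against 568 and 583 CPM in club cells, with a UMI in 114 of 116 Club-Tracer members.

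Against AT2 cells, the members had lower levels of surfactant and lipid genes and higher levels of airway and keratin genes. In the Club-Tracer library 174 of 2877 genes were higher (6.05%) and 84 lower (2.92%), and in the BASC-Tracer library 140 of 3134 were higher (4.47%) and 137 lower (4.37%). In the AT2-Tracer library 27 of 3093 were higher (0.873%) and 29 lower (0.938%). The median gene lay 0.21, 0.08 and 0.06 higher in the members on the log2 scale, and relative to it 110 genes were higher and 120 lower in the Club-Tracer library, 125 and 155 in the BASC-Tracer library, and 21 and 32 in the AT2-Tracer library. The Club- and BASC-Tracer libraries shared 98 higher genes (56.3% and 70.0% of each) and 67 lower ones (79.8% and 48.9%).

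AT2 markers were lower in 10 of 14 cases in the Club-Tracer library and 11 of 15 in the BASC-Tracer library, and none was higher. Lamp3 was at 135 and 266 CPM in Club- and BASC-Tracer members, against 508 and 876 CPM in AT2 cells, and like Sftpc had chosen the AT2 cells. Lyz2 was at 2977 and 3378 CPM in the members, against 23227 and 15664 CPM in AT2 cells. Lcn2, which binds bacterial siderophores, was at 412 and 809 CPM in the members, against 2922 and 3228 CPM in AT2 cells. All of these were low in both libraries.

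Lipid synthesis genes were lower in 4 of 11 and 5 of 13 cases, and none was higher. The desaturase gene Scd1 was at 571 and 1093 CPM in the members, against 3774 and 4285 CPM in AT2 cells, and the fatty acid synthase gene Fasn at 154 and 205 CPM, against 588 and 719 CPM. Nkd1, an inhibitor of Wnt signalling, was at 35.4 and 48.0 CPM in the members, against 210.4 and 258 CPM in AT2 cells. Hdc, the histidine decarboxylase gene, was at 12.7 and 13.3 CPM, against 111 and 94.5 CPM. Snhg11, Cd177, Hc, Chil1 and Sftpc completed the 10 lowest, with Chil1, a chitinase-like protein, at 131 and 250.2 CPM in the members, against 688 and 1162 CPM in AT2 cells.

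MHC class II genes, which present antigen, were lower than in AT2 cells in 1 of 3 cases in the Club-Tracer library and 4 of 4 in the BASC-Tracer library. H2-Aa was at 125 and 36.6 CPM in the members, against 337 and 432 CPM in AT2 cells. In club cells H2-Aa was at 15.4 and 19.2 CPM, under the members of both libraries.

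Airway and barrier genes stood above AT2 cells. Club markers were higher in 6 of 10 and 7 of 10 cases, with Cyp2f2 at 3178 and 2625 CPM in the members, against 707 and 333 CPM in AT2 cells. Sec14l3, a lipid-binding airway gene, was at 621 and 611 CPM in the members, against 49.7 and 68.8 CPM in AT2 cells, with a UMI in 92 of 116 Club-Tracer members. Cldn4, a claudin that tightens junctions, was at 215 and 185 CPM in the members, against 24.2 and 30.0 CPM. Psca, a surface antigen, was at 234 and 225 CPM in the members, against 24.9 and 39.5 CPM, and the secreted gene Wfdc1 at 188 and 112 CPM, against 18.5 and 8.74 CPM. Lrrc26 was at 112 and 80.9 CPM, against 8.27 and 1.87 CPM.

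Other genes high against AT2 cells rested on few members. A single BASC-Tracer member gave 78.2% of the Msln UMIs, 92.3% of those of Ltf and 87.8% of those of Ube2c in its class, counted for each gene on its own. Without the barcodes found in a second library, Ube2c lay under the AT2 cells of the BASC-Tracer library, at -0.55 on the log2 scale.

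Simple keratins were mostly above both comparison classes in CPM, and the list holds Krt7, which was high by construction. Against club cells 3 of 4 and 4 of 4 were higher in the Club- and BASC-Tracer libraries, but 1 and 1 relative to the median gene. Krt7 was past 2-fold relative to the median gene in both libraries, and Krt8 and Krt19 were not. Against AT2 cells 3 of 4 and 4 of 5 were higher, and Krt23 was lower in the BASC-Tracer library. Krt19 was at 1038 and 1238 CPM in Club- and BASC-Tracer members, against 452 and 386 CPM in club cells and 202 and 193 CPM in AT2 cells. Transitional markers were higher than in AT2 cells in 7 of 12 and 9 of 12 cases. Clu, a secreted chaperone, was at 1408 and 952 CPM in the members, against 341 and 304 CPM in club and 252 and 205 CPM in AT2 cells.

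Of the genes measured in both comparisons, 94 of 2682 in the Club-Tracer library (3.50%) and 71 of 2783 in the BASC-Tracer library (2.55%) were higher in the members than in both club and AT2 cells, and 43 of them in both libraries. Besides S100a6, Psca, Clu, Krt8 and Krt19 these included Plb1, a phospholipase gene, at 145 and 122 CPM in the members, against 30.3 and 29.9 CPM in club and 26.6 and 13.7 CPM in AT2 cells. The annexin gene Anxa5 was at 515 and 649.5 CPM in the members, against 83.7 and 82.3 CPM in club and 197 and 235 CPM in AT2 cells. Mki67 was at 51.2 and 77.7 CPM in the members, against 7.53 and 2.09 CPM in club and 7.24 and 36.1 CPM in AT2 cells, with a UMI in 30 of 116 and 9 of 37 members. Without the member with most Mki67 UMIs, which gave 26.4% of them in the Club-Tracer and 37.4% in the BASC-Tracer library, it was at 38.8 and 49.5 CPM, and no longer 2-fold above AT2 cells in the BASC-Tracer library. With the member richest in the gene left out for each gene in turn, a check chosen after seeing the data, 21 of the 40 genes of this group that the rule and the ranking did not leave out stayed at least 2-fold above both classes in both libraries.

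**Figure D4:**
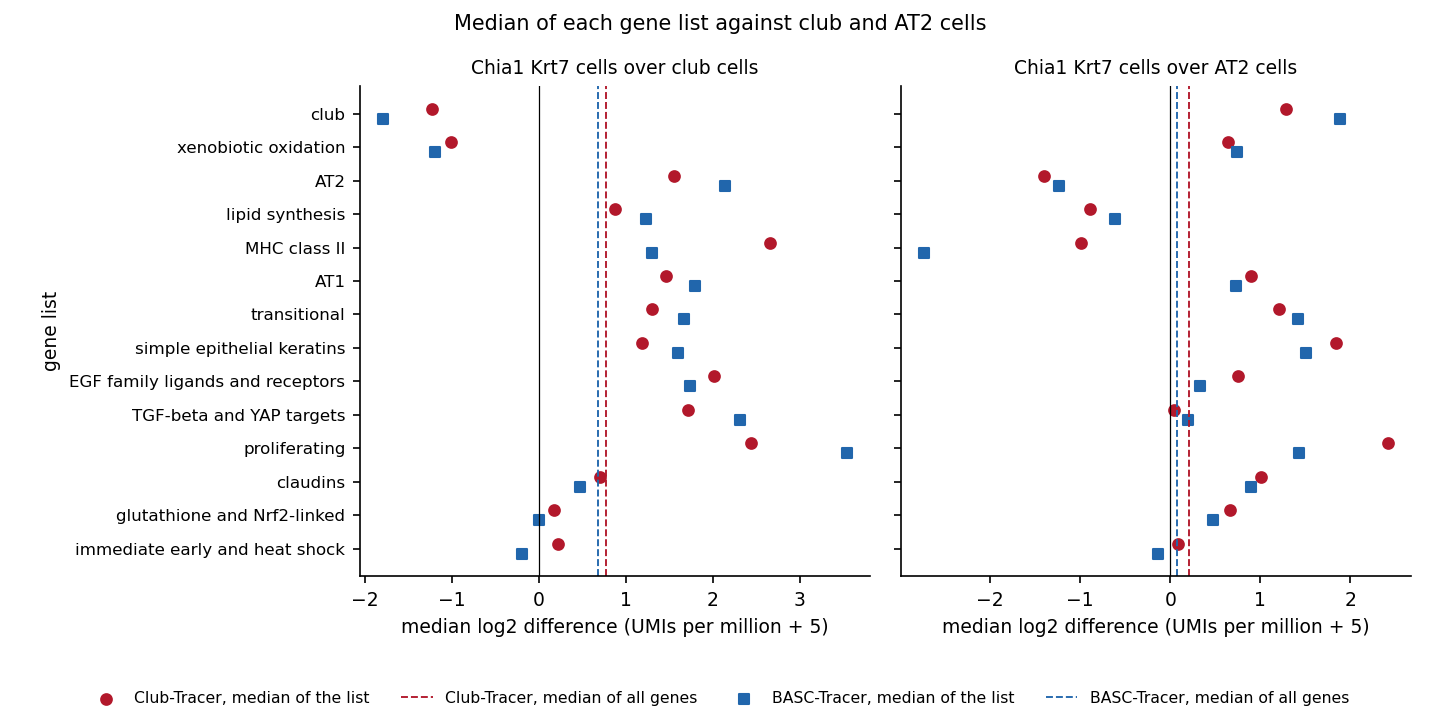
Median log2 difference of gene lists between the Chia1 Krt7 cells and club cells or AT2 cells, on the log2(CPM + 5) scale, in the Club- and BASC-Tracer libraries; dashed lines give the median of all genes measured. The club list lies at -1.23 and -1.79 against club cells and at 1.29 and 1.88 against AT2 cells, and the AT2 list at 1.56 and 2.14 against club cells and at -1.40 and -1.24 against AT2 cells.

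Most markers of immune, endothelial, mesenchymal and basal cells were at or near 0 in the members, and those of ciliated cells were not. Krt5 and Krt14 of basal cells, Upk3b and Wt1 of mesothelium, and Trpm5 and Pou2f3 of tuft cells had no UMI in the members of any library. The 8 macrophage or monocyte markers summed to 5.46, 5.05 and 32.4 CPM in the Club-, BASC- and AT2-Tracer members, with 5, 4 and 2 of them at 0. The 6 endothelial markers summed to 2.59, 1.90 and 20.8 CPM, and the 6 markers of fibroblasts or smooth muscle to 0.288, 0 and 0 CPM. The basal list summed to 7.48, 70.8 and 2.32 CPM, where 1 BASC-Tracer member gave 99.1% of the Krt15 UMIs.

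The 8 ciliated markers summed to 765, 625 and 118 CPM in the members of the 3 libraries, against 391, 615 and 376 CPM in club cells and 64.2, 82.3 and 113 CPM in AT2 cells. Sec14l3, which is on that list, was at 621 and 611 CPM in Club- and BASC-Tracer members and made up most of the sum there. The median Club-Tracer member was at 403 CPM over the list and the highest at 13164 CPM, and 0, 3 and 4 of the 8 markers were at 0 in the members of the 3 libraries. The mesothelial list summed to 67.6, 36.0 and 2.32 CPM, mostly from Msln. The part of such cells in the results was not tested.

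The reporters followed the sorts. The tdT transcript was at 1027 and 1583 CPM in Club- and BASC-Tracer members, with a UMI in 112 of 116 and 37 of 37, and had no UMI in AT2-Tracer members. ZsGFP was at 26.7, 8957 and 8428 CPM in the members of the Club-, BASC- and AT2-Tracer libraries.

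Set side by side, the Club- and BASC-Tracer members differed in few genes by this measure. Of 2976 genes, 21 were higher (0.706%) and 20 lower (0.672%) in Club-Tracer members, with 1 library on each side. Ly6a was at 2111 CPM in Club-Tracer members and 957 CPM in BASC-Tracer members, a ratio of 2.21 (2.09 to 2.33). Without the barcodes found in a second library it differed by 0.91 on the log2 scale and was no longer past 2-fold. Ly6d, a relative of Ly6a, was at 86.6 and 10.1 CPM.

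The largest differences between these libraries rested on few cells, and some on 1. Scgb3a1 was at 812 CPM in Club-Tracer members and 1.26 CPM in BASC-Tracer members, AU040972 at 107 and 1.26 CPM, Bpifa1 at 78.5 and 0.632 CPM, and Cxcl5 at 66.1 and 4.42 CPM. For each of these 4 genes 1 Club-Tracer member gave 60.9%, 49.9%, 56.0% and 73.5% of the UMIs of its class. Without that cell the 4 genes were at 322, 54.2, 34.8 and 17.8 CPM in Club-Tracer members and still past 2-fold. Krt15 was at 1.73 CPM in Club-Tracer and 69.5 CPM in BASC-Tracer members, and the stress-induced gene Gdf15 at 15.5 and 81.5 CPM, with 99.1% and 80.6% of the BASC-Tracer UMIs in 1 cell each. Fmo1, Serpind1 and Hc were also lower in Club-Tracer members, with Hc at 35.9 and 111 CPM. Without the BASC-Tracer member richest in each gene, Krt15, Gdf15, Serpind1 and Hc were at 0.662, 16.4, 35.7 and 46.5 CPM in BASC-Tracer members and no longer 2-fold apart, and Fmo1, at 31.1 CPM, still was.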

How the data were processed

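The deposited matrices hold raw UMI counts per gene and barcode, made with Cell Ranger 6.1.1 on mm10 per the submitters' processing notes; other steps are not given in the sources used here. The 3 libraries held 62570890, 29013077 and 72256580 UMIs over 32287 features in the Club-, BASC- and AT2-Tracer order. The members, gene lists and measures were chosen with earlier results of these data known. UMIs were summed over the cells of a class within a library and given as CPM, with exact Poisson intervals and exact conditional intervals for ratios, which cover counting error only and at 95% leave out animal-to-animal spread. With 1 library for each lineage no p-value exists. Genes were named by size: the 10 highest and 10 lowest of the Club-Tracer library reaching 50 CPM and 30 UMIs in whichever class was higher and also past 2-fold in the BASC-Tracer library, 5 each way between libraries, and the genes of the fixed lists. A single gene that this naming selects is not reported here. The ranking left out the genes of the rule, the reporters, ribosomal protein, mitochondrial and similar genes. The 18 marker and 23 pathway lists were counted without a set test. Neighbours and Leiden clusters used scanpy 1.11.5. Doublets were marked with Scrublet; its automatic threshold marked 7 barcodes (0.219%) in the Club-Tracer library and 0 in the BASC-Tracer library, so a fixed rate was used there; 82, 16 and 113 of 3196, 1402 and 5859 scored barcodes were marked, and marked cells were kept. The script was tested on simulated data. Python 3.11.15 with numpy 2.4.6, pandas 2.3.3 and scipy 1.17.1 was used.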

Additional observations from a re-analysis of the deposited data

How the results depend on the processing

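No paired analysis was possible because each lineage has 1 library and no test was made. The share of members was 4.84%, 4.26% and 0.714% of Epcam barcodes in the Club-, BASC- and AT2-Tracer libraries. With Chia1 at 0.1% or more it was 3.59% in the Club-Tracer and 0.178% in the AT2-Tracer library. With Krt7 at 0.1% or more it was 2.38%, 2.19% and 0.25% in the 3 libraries, and with Scgb1a1 under 10% it was 3.79% in the Club-Tracer library. Leaving out members past 3% Sftpc or 10% Scgb1a1, an alternative chosen after seeing the data, gave 2.84%, 2.19% and 0.178%. Against club cells, the 778, 723 and 1371 genes past 2-fold became 205, 300 and 815 relative to the median gene. With a minimum of 20 CPM they were 1177, 1175 and 2640, and with 100 CPM 441, 432 and 681. A pseudocount of 20 gave 436 and 452, and CPM without Scgb1a1 283 and 390, in the Club- and BASC-Tracer libraries. The members below both limits gave 1167, 1166 and 2264 in the Club-, BASC- and AT2-Tracer libraries. With only club cells at 25% Scgb1a1 or more, the counts were 1065, 948 and 1684. Against AT2 cells, the 258, 277 and 56 genes became 424, 458 and 208 at 20 CPM, 164, 177 and 25 at 100 CPM, and 390, 432 and 1111 in the members below both limits. In the AT2-Tracer library a pseudocount of 20 gave 31 and the mean over cells 131. Between Club- and BASC-Tracer members, 41 genes became 79 at 20 CPM, 19 at 100 CPM and 85 in the members below both limits. Without the barcodes found in a second library, also chosen after seeing the data, the counts were 725, 579 and 1371 against club cells, 243, 227 and 56 against AT2 cells and 59 between the libraries. Signs turned on the log2 scale in the members below both limits for Lyz1 against club cells (-0.19, Club-Tracer), Ly6a against club cells (-0.72) and AT2 cells (-0.66, both AT2-Tracer, 5 cells), and Krt15 (0.066) and Gdf15 (1.06) between libraries. Without the shared barcodes they turned for Ube2c against AT2 cells (-0.55, BASC-Tracer) and Krt15 between libraries (0.21). Without the member with most UMIs of the gene, chosen after seeing the data, they turned for Ccl20 against club cells (-0.45), Ube2c against AT2 cells (-1.09, both BASC-Tracer) and Krt15 between libraries (0.25). The cause was not tested. Of 1594 values for single genes under the alternatives, 699 lay within the counting interval of the value reported, 885 lay outside it and 10 changed sign.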
